A study of Mus musculus with 6 samples.

Results

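Fatty acid and triglyceride synthesis was followed here through 39 genes of 54532 in the gene tables and of 21950 gene IDs in the transcript tables, chosen by symbol from the known pathway and all found in all 6 libraries. They fall into chain synthesis (14 genes), chain elongation (7) and glycerolipid assembly (18). RNA came from 3T3-L1, a mouse fibroblast line that can be turned into adipocytes in culture, labelled wild type and as adipocytes. The model group, with 3 libraries, had undergone chronic intermittent hypoxia (CIH), in which oxygen is lowered again and again, and the control group had 3 libraries without it. Cells of both groups were induced with insulin and kept in medium with 0.1 µM insulin to day 8, per the labels' protocols. These also give 10% serum for all 6 libraries. The sources used here do not give the oxygen levels or the length of the exposure. All libraries come from this 1 line, and the labels name no separate cultures, so the p-values reflect only how far these libraries vary, which may be technical variation.

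Adipocytes make fatty acids from glucose carbon. Mitochondrial citrate is carried to the cytosol and split to acetyl-CoA, which acetyl-CoA carboxylase turns into malonyl-CoA and fatty acid synthase joins into palmitate. Enzymes of the endoplasmic reticulum lengthen such chains by repeated cycles of condensation, reduction and dehydration. Acyl-CoA synthetases activate the chains, acyltransferases place them on glycerol 3-phosphate, lipins remove the phosphate and DGAT enzymes add the last chain to give triglyceride. The transcription factors SREBP-1 (Srebf1) and ChREBP (Mlxipl, with its partner Mlx) are known activators of chain synthesis genes. No binding of these factors was measured here.

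Levels are given as deposited, in FPKM: the fragments of a gene per kilobase of its transcript, after scaling for library size. Replicates 1 and 2 came as gene tables and replicate 3 of both groups as transcript tables, so the comparisons were made separately: CIH 1 and CIH 2 against control 1 and control 2 with limma, and CIH 3 against control 3 with no test. The gene tables hold about 26200000 and 27400000 fragments in CIH 1 and 2, against 25700000 and 28000000 in control 1 and 2, while the depth of CIH 3 and control 3 is unknown. Of all 10981 genes tested in CIH 1 and 2, 21.7% fell, 20.2% rose and 41.9% were called in either direction, shares to set beside the marker counts. Of 10 adipocyte markers, 5 fell, 0 rose and 5 were not called in CIH 1 and 2 (limma, adjusted p under 0.05, with the same 5 and 0 at an unadjusted p under 0.05). Their summed level was 7173 and 6339 FPKM in CIH 1 and 2 against 7885 and 8433 FPKM in control 1 and 2, and 651 FPKM in CIH 3 against 29851 FPKM in control 3. Of 10 preadipocyte or fibroblast markers, 8 rose and 2 fell in CIH 1 and 2, with summed levels of 650.2 and 649.8 FPKM in CIH 1 and 2 against 399 and 428 FPKM in control 1 and 2, and 6490.1 FPKM in CIH 3 against 953 FPKM in control 3. In the replicate 3 pair all 10 adipocyte markers were at least 2-fold lower in CIH 3 (median log2 difference −5.47), beside 11.3% of all genes. All 10 fibroblast markers were at least 2-fold higher (3.19), beside 23.6% of all genes, so CIH 3 stands apart from the adipocyte label that it shares with the others. The part of these shifts in the results on lipid synthesis was not tested. In bulk RNA fewer adipocytes and less RNA per adipocyte cannot be told apart. Macrophage markers summed to at most 4.95 FPKM in any library, with Adgre1 listed at 0 in all 6 and Ptprc at 0 in all but CIH 2, where it was at 0.00199 FPKM. Endothelial and skeletal muscle markers summed to at most 0.547 and 0.802 FPKM in any library, and the epithelial markers Krt8 and Krt18, which passed the filter only through the control libraries, fell in CIH 1 and 2. Of the other epithelial markers, Epcam was listed at 0 in all 6 libraries. Cdh1 was at 0.0170 FPKM in control 1 and at 0 elsewhere.

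In CIH 1 and CIH 2 the core genes of chain synthesis fell. Those of fatty acid synthase, both acetyl-CoA carboxylases, ATP-citrate lyase and the citrate carrier were all lower than in control 1 and 2. Of the 39 members 35 passed the filter on low values, and 16 of these fell, 6 rose and 13 were not called. Over all 10981 genes tested, 21.7% fell, 20.2% rose and 41.9% were called in either direction. Chain synthesis had 8 genes lower and 1 higher of 13 tested, elongation 1 lower and 2 higher of 5, and glycerolipid assembly 7 lower and 3 higher of 17. The median log2 change over tested members was −0.63 in chain synthesis, 0.097 in elongation and −0.12 in assembly, beside −0.01 over all genes tested. Over all members of a class, tested or not, it was −0.46, 0.00 and −0.13. The 0.00 is the value of Elovl7, which was listed at 0 in all 4 gene tables. The elongation counts and medians include Elovl6, which passed the filter only through the CIH libraries. The CIH libraries lay outside the range of the control libraries for 28 of the 35 tested members, against 74.3% of all genes tested.

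The falls held more widely than the rises. Results were recomputed in 12 other ways, by changing a processing step or leaving out a library. In all 12, 14 of the 16 lower calls held. None of the 6 higher calls held in all 12. Members called higher numbered 3 without control 1, 2 without control 2, 1 without CIH 1 and 4 without CIH 2, beside 16.9%, 20.9%, 10.5% and 15.3% of all genes tested. Members called lower numbered 15, 15, 14 and 14, beside 18.6%, 21.2%, 13.3% and 14.5%. Scaling to the total FPKM gave 1558 genes higher and 3381 lower in place of 2216 and 2387 and moved the median of all genes to −0.12. Of the members it then called 5 higher and 18 lower, beside 14.2% and 30.8% of all genes. Among the 6 higher members, Elovl6 passed the filter only through the CIH libraries, where it was higher.

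**Figure D1:**
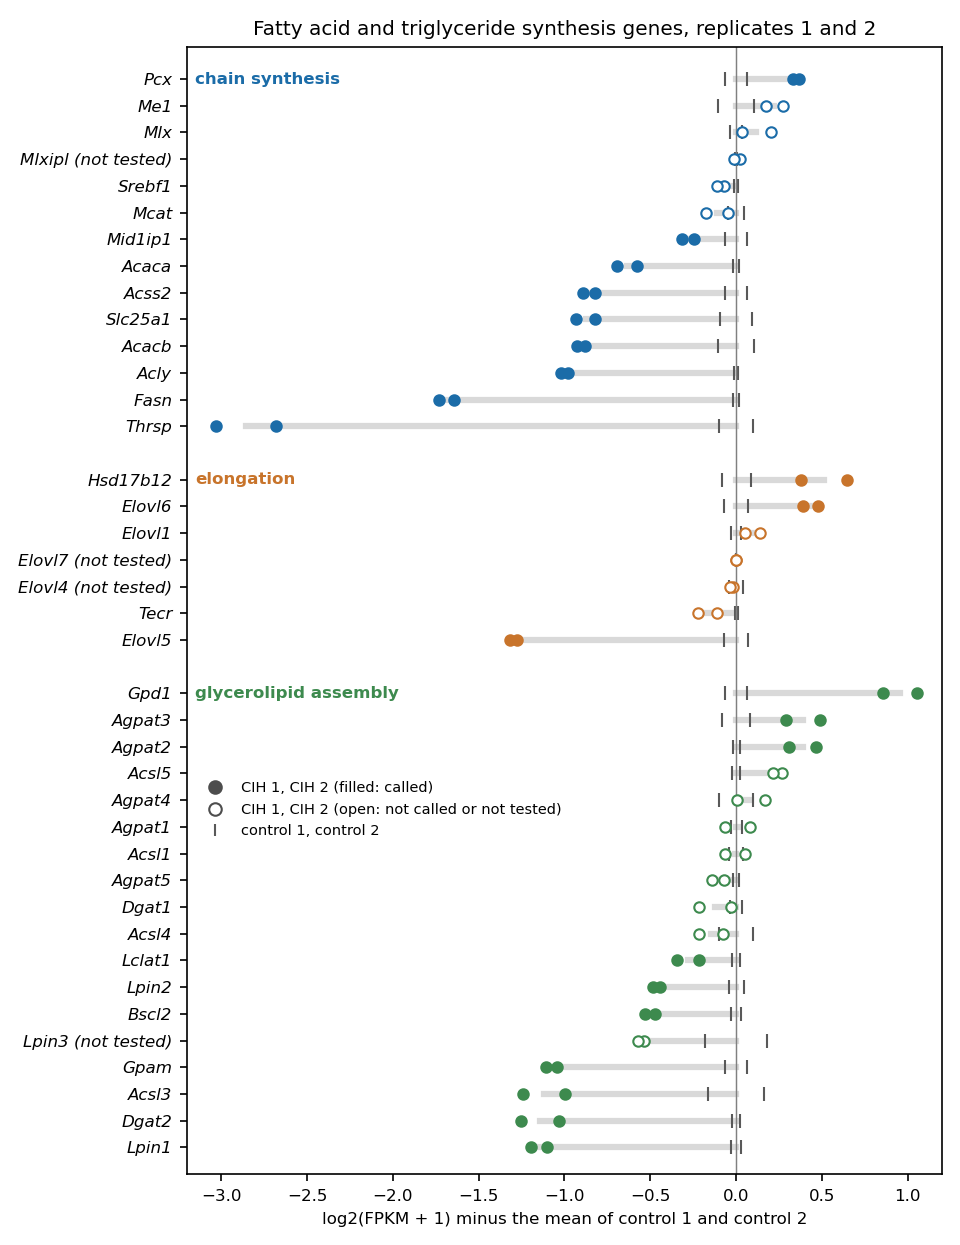
Each row is a member gene and the x axis is log2(FPKM + 1) minus the mean of control 1 and control 2. Circles are CIH 1 and CIH 2, filled where limma called the gene, short bars are control 1 and control 2, and the grey line joins the group means. Thrsp and Fasn lie furthest to the left in chain synthesis, Elovl5 stands alone to the left in elongation, and in assembly Gpd1 lies to the right while Lpin1, Dgat2, Acsl3 and Gpam lie to the left.

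The genes of carbon supply to chain synthesis were split. Acly is the ATP-citrate lyase that splits cytosolic citrate into acetyl-CoA and oxaloacetate (chr11:100476353-100528000, − strand, GRCm38, GENCODE M21, as for all gene coordinates here). It had 82.6 and 85.1 FPKM in CIH 1 and CIH 2, against 170.3 and 168 FPKM in control 1 and control 2. Both CIH libraries were at about the same level, well below both controls, and the means were 83.9 ± 1.72 FPKM in CIH and 169 ± 1.91 FPKM in control libraries (SD, n = 2 each). The log2 change was −1.002 (SE 0.0920, adjusted p = 0.000303). Slc25a1 is the carrier that exports citrate from mitochondria (chr16:17925223-17928219, − strand). Its level was 105 and 97.4 FPKM in CIH 1 and CIH 2, against 175 and 199 FPKM in control 1 and control 2, and it fell (log2 change −0.88, SE 0.108, adjusted p = 0.00105). Acss2, which makes acetyl-CoA from acetate, was lower too, with 5.87 and 5.55 FPKM in CIH 1 and CIH 2, against 11.7 and 10.6 FPKM in control 1 and control 2 (log2 change −0.86, adjusted p = 0.000507).

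Pcx, the mitochondrial pyruvate carboxylase that replenishes oxaloacetate (chr19:4510472-4621752, + strand), stood against this. Its level was 751 and 733 FPKM in CIH 1 and CIH 2, against 556 and 609 FPKM in control 1 and control 2, among the highest of all members, with both CIH libraries above both controls (log2 change 0.35, SE 0.118, adjusted p = 0.0494). Its call was lost when any 1 of the 4 libraries was left out, with an adjusted p of 0.308 without control 1, 0.112 without control 2, 0.135 without CIH 1 and 0.0944 without CIH 2. The adjusted p over all 12 recomputations ran from 0.0202 to 0.308. Me1, the cytosolic malic enzyme that yields NADPH, had 80.5 and 75.2 FPKM in CIH 1 and CIH 2, against 71.5 and 61.9 FPKM in control 1 and control 2 and was not called (log2 change 0.22, adjusted p = 0.128).

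The genes of the carboxylase and synthase steps were lower throughout: all 5 of this group fell. Fasn, fatty acid synthase (chr11:120805846-120824547, − strand), had 72.0 and 76.7 FPKM in CIH 1 and CIH 2, against 239 and 245 FPKM in control 1 and control 2. The CIH libraries were closely alike and stood far below the controls, with means of 74.3 ± 3.31 FPKM in CIH and 242 ± 4.08 FPKM in control libraries (SD, n = 2 each). The log2 change was −1.69 (SE 0.0956, adjusted p = 4.39e-05). Thrsp, the Spot 14 protein linked to lipogenesis (chr7:97412938-97417730, − strand), showed the largest change of the 35 tested members. It had 5.45 and 4.06 FPKM in CIH 1 and CIH 2, against 37.6 and 43.4 FPKM in control 1 and control 2, so that both CIH libraries were several times below the lower control. The fall was 7.25-fold on the log2(FPKM + 1) scale (log2 change −2.86, SE 0.133, adjusted p = 1.94e-05).

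Acaca is the cytosolic acetyl-CoA carboxylase that supplies malonyl-CoA for synthesis (chr11:84129672-84401651, + strand). It had 10.9 and 11.9 FPKM in CIH 1 and CIH 2, against 18.1 and 18.5 FPKM in control 1 and control 2, with no overlap between the groups (log2 change −0.63, SE 0.0863, adjusted p = 0.00155). Acacb is the carboxylase at the mitochondrial surface, whose malonyl-CoA restrains fatty acid oxidation (chr5:114146535-114250761, + strand). Its level was 4.38 and 4.20 FPKM in CIH 1 and CIH 2, against 8.20 and 9.64 FPKM in control 1 and control 2, again with no overlap (log2 change −0.90, SE 0.0994, adjusted p = 0.000637). Of the summed FPKM of these carboxylase genes, Acaca made up 71.4% and 74.0% in CIH 1 and CIH 2, against 68.8% and 65.8% in control 1 and control 2, a small shift beside the fall of both. Mid1ip1, a relative of Thrsp that promotes polymerisation of acetyl-CoA carboxylase, was closer to its controls, with 14.1 and 13.4 FPKM in CIH 1 and CIH 2, against 16.1 and 17.7 FPKM in control 1 and control 2 (log2 change −0.28, adjusted p = 0.0402). Its call was lost with an adjusted p of 0.146 without control 2, 0.111 without CIH 1 and 0.178 without CIH 2, and the adjusted p over all 12 recomputations ran from 0.00784 to 0.178.

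Neither of the transcription factor genes that were tested passed the test. Srebf1, which encodes SREBP-1 (chr11:60199089-60222581, − strand), had 40.8 and 39.6 FPKM in CIH 1 and CIH 2, against 42.4 and 43.3 FPKM in control 1 and control 2, a difference that did not pass the test (log2 change −0.09, SE 0.0848, adjusted p = 0.418). Mlxipl, which encodes ChREBP (chr5:135089890-135138382, + strand), was near absent from the gene tables: it had 4 and 0 fragments in CIH 1 and 2, against 1 and 2 in control 1 and 2, and it was not tested. Mlx had 30.2 and 26.8 FPKM in CIH 1 and CIH 2, against 26.8 and 25.5 FPKM in control 1 and control 2 (log2 change 0.12, adjusted p = 0.349), with 19.3% of its exon bases shared with Psmc3ip on the opposite strand. Mcat, which loads malonyl groups for mitochondrial fatty acid synthesis, had 27.1 and 24.7 FPKM in CIH 1 and CIH 2, against 27.0 and 29.0 FPKM in control 1 and control 2 (log2 change −0.11, adjusted p = 0.365). It shares 2.15% of its exon bases with Tspo on the opposite strand, a gene at up to 669 FPKM in the gene tables.

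The stretches just upstream of 5 called members are shown because these genes carry the contrast between the enzymes that fell and the carbon supply gene that rose, and because SREBP-1, ChREBP and NF-Y, a CCAAT-binding factor, are known to act at short motifs near such starts. Each is the 250 bases before the RefSeq transcription start (GRCm38.p6), 5′ to 3′ on the strand of the gene, and at most 1 base of each window lies in a GENCODE exon. Capitals mark the E-box CACGTG and the CCAAT box (CCAAT on either strand).
Fasn (chr11:120824548-120824797, − strand): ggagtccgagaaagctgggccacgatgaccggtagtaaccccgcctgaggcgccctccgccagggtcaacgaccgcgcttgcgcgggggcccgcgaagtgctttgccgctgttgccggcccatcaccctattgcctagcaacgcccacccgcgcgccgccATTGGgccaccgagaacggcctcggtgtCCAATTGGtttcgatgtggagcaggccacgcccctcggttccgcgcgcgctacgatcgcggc
Slc25a1 (chr16:17928220-17928469, − strand): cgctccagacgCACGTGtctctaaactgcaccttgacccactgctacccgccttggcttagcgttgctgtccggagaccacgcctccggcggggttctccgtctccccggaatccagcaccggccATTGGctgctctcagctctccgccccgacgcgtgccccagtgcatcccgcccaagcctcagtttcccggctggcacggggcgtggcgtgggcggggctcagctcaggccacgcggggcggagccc
Elovl5 (chr9:77917115-77917364, + strand): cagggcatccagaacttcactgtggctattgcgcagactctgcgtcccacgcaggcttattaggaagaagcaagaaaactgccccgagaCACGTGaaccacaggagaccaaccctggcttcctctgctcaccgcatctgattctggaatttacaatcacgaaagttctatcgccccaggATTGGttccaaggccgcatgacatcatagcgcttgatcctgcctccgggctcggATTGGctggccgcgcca
Lpin1 (chr12:16610967-16611216, − strand): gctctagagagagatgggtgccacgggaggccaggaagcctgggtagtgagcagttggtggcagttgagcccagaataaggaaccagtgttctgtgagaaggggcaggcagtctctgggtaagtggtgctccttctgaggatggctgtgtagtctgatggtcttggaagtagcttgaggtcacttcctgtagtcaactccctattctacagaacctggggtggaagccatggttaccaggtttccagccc
Pcx (chr19:4510222-4510471, + strand, the upstream one of its RefSeq starts): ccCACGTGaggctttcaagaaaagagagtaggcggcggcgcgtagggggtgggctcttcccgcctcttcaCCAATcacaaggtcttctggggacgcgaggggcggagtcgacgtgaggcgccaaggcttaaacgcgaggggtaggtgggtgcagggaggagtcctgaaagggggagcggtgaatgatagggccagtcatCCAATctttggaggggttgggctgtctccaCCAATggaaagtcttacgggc

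In Fasn the CCAAT boxes began 90, 62 and 59 bases before the start, the last 2 overlapping on opposite strands. In Elovl5 an E-box began 161 bases before the start and CCAAT boxes 71 and 17 bases before it. Slc25a1 had an E-box at 239 bases and a CCAAT box at 125, and Pcx, which was higher, had an E-box at 248 bases and CCAAT boxes at 180, 51 and 21. Lpin1, which fell, had none of these letters in this window. Over all members with a RefSeq promoter, CCAAT was found on either strand in 22 of 34 genes, in 10 of 15 that fell, 2 of 5 that rose and 9 of 10 not called, beside 37.5% of 27025 genes with such a promoter. CACGTG, which reads the same on both strands, was in 3 of 15 genes that fell (Elovl5, Slc25a1 and Lpin2) and 1 of 5 that rose (Pcx), beside 6.86% of all genes. The sterol response element TCACNCCAC, searched on both strands, was in 2 of 34 members (Acsl1 and Mlxipl) and in 0 of the 15 that fell, beside 1.22% of all genes. These counts describe letters in a window and say nothing of binding.

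Elongation genes did not move as a block in CIH 1 and 2: of the 5 tested, Elovl5 fell, Hsd17b12 rose and 2 were not called. The remaining gene, Elovl6, was called higher but entered the test only through the CIH libraries. Elovl5, which lengthens polyunsaturated chains (chr9:77917364-77984519, + strand), had 14.9 and 14.4 FPKM in CIH 1 and CIH 2, against 39.4 and 35.7 FPKM in control 1 and control 2. Its CIH libraries were closely alike and below both controls, at 14.6 ± 0.316 FPKM in CIH and 37.6 ± 2.58 FPKM in control libraries (SD, n = 2 each). The log2 change was −1.30 (SE 0.0896, adjusted p = 9.66e-05). Elovl6, which lengthens palmitate to stearate (chr3:129532355-129638495, + strand), was a low gene in the gene tables, with 1.77 and 1.60 FPKM in CIH 1 and CIH 2, against 1.08 and 0.889 FPKM in control 1 and control 2. These values rest on 297 and 282 fragments in CIH 1 and 2, against 179 and 160 in control 1 and 2. The control mean of 0.985 FPKM was below the filter of 1 FPKM, so that Elovl6 entered the test only through CIH 1 and 2 and its call is no support for a rise of the class. Its CIH values were above both controls (log2 change 0.43, SE 0.118, adjusted p = 0.0230). The call was lost with an adjusted p of 0.0641 without control 2, 0.130 without CIH 1 and 0.0624 without CIH 2, within 0.0123 to 0.130 over all 12 recomputations.

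Hsd17b12, the 3-ketoacyl-CoA reductase of the elongation cycle (chr2:94032689-94157964, − strand), had 360.3 and 299 FPKM in CIH 1 and CIH 2, against 244 and 217 FPKM in control 1 and control 2. It was higher in both CIH libraries (log2 change 0.51, SE 0.130, adjusted p = 0.0188). This call was lost with an adjusted p of 0.0713 without control 2 and 0.0928 without CIH 1, within 0.00835 to 0.111 over all 12 recomputations. Tecr, the enoyl-CoA reductase that closes the cycle, had 81.2 and 75.2 FPKM in CIH 1 and CIH 2, against 87.4 and 88.4 FPKM in control 1 and control 2 and was not called (log2 change −0.17, adjusted p = 0.184). Elovl1, which acts on long saturated chains, had 32.8 and 30.8 FPKM in CIH 1 and CIH 2, against 30.2 and 29.1 FPKM in control 1 and control 2 and was not called either (log2 change 0.10, adjusted p = 0.398). Elovl4, known for very long chains in retina and skin, had 26 and 26 fragments in CIH 1 and 2, against 30 and 26 in control 1 and 2. Elovl7 was listed at 0 in all 4 gene tables, and neither was tested.

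The make-up of the elongase family differed between the groups. Of the summed FPKM of the 5 Elovl members, Elovl5 took 29.9% and 30.6% in CIH 1 and CIH 2, against 55.4% and 54.1% in control 1 and control 2. Elovl1 took 65.9% and 65.3% in CIH 1 and CIH 2, against 42.5% and 44.0% in control 1 and control 2. Elovl5 was the most abundant elongase in both control libraries and Elovl1 in both CIH libraries. These shares compare levels per exon length within a library.

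**Figure D2:**
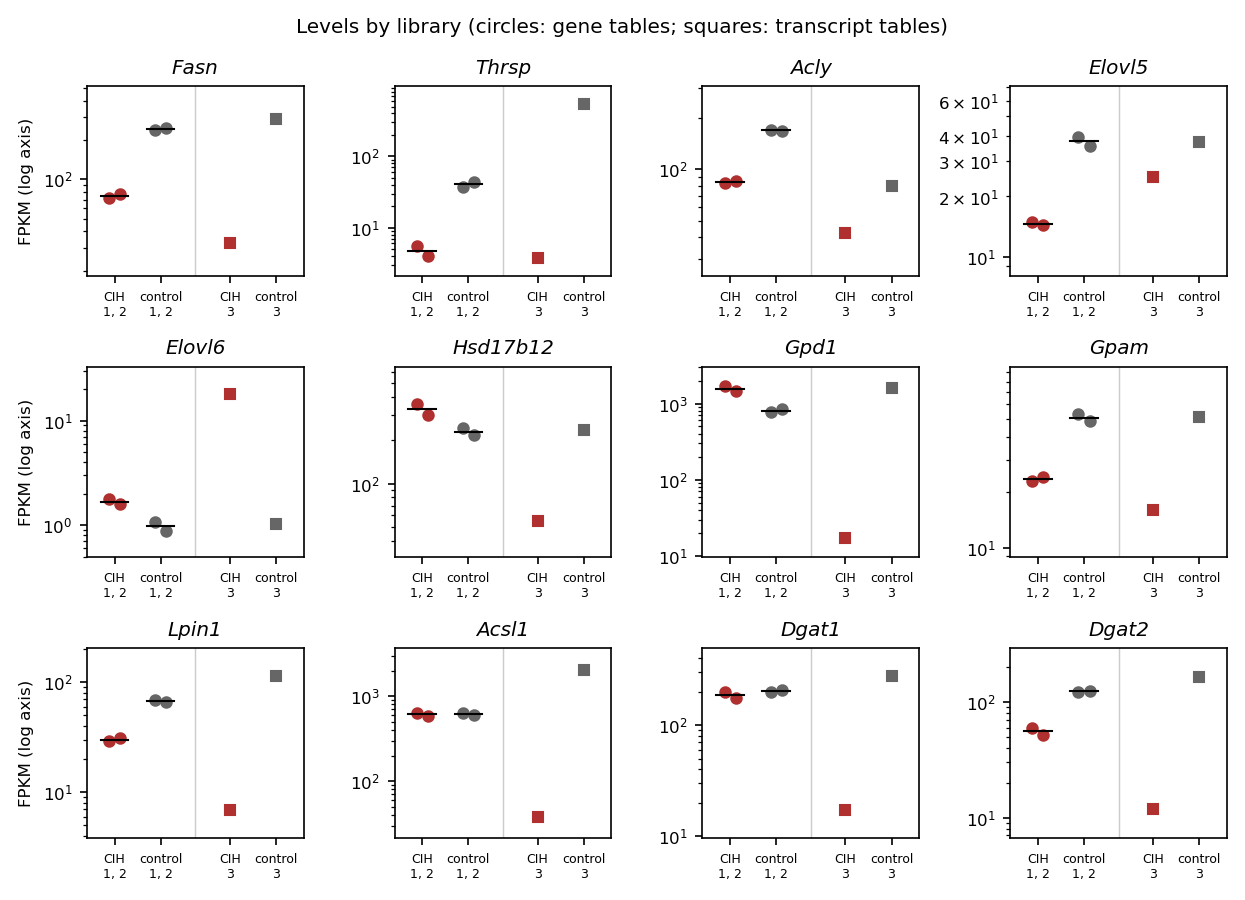
Levels of 12 members in FPKM on log axes, each panel with its own scale. Red marks CIH and grey control libraries, circles with a mean line are the gene tables (CIH 1 and 2 left of control 1 and 2), and squares are the transcript tables (CIH 3 left of control 3), whose levels are not comparable with the circles. The CIH values of Fasn, Thrsp, Lpin1, Gpam and Dgat2 lay under the control values in circles and squares alike, while Gpd1 was higher in CIH 1 and 2 and lower in CIH 3.

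Glycerolipid assembly held both the strongest rise and several of the clear falls. Gpd1 is the cytosolic glycerol-3-phosphate dehydrogenase that makes the glycerol 3-phosphate backbone (chr15:99717515-99725005, + strand). It had 1676 and 1460.3 FPKM in CIH 1 and CIH 2, against 770.5 and 842 FPKM in control 1 and control 2. Both CIH libraries were well above both controls, at 1568 ± 152 FPKM in CIH and 806 ± 50.9 FPKM in control libraries (SD, n = 2 each), so Gpd1 rose 1.94-fold, the largest rise of the 35 tested members. The log2 change was 0.96 (SE 0.137, adjusted p = 0.00195). It was also the most abundant member in both groups. Its call was lost when no filter on low values was applied (adjusted p = 0.0799), and held in the other recomputations (adjusted p over all 12 from 0.000398 to 0.0799).

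Gpam, the mitochondrial acyltransferase that places the first chain on this backbone (chr19:55067268-55127238, − strand), fell. Its level was 23.1 and 24.2 FPKM in CIH 1 and CIH 2, against 53.3 and 48.6 FPKM in control 1 and control 2 (log2 change −1.07, SE 0.0914, adjusted p = 0.000219). The CIH libraries stood below both controls. The ratio of Gpd1 to Gpam was therefore 72.5 and 60.3 in CIH 1 and 2, against 14.5 and 17.4 in control 1 and 2. Gpam is not the only gene for this step, and the others, outside the 39 members, were split. Gpat3 was higher, with 33.6 and 30.6 FPKM in CIH 1 and 2, against 25.3 and 23.5 FPKM in control 1 and 2 (log2 change 0.38, adjusted p = 0.0157). Gpat4 was lower, with 28.8 and 27.1 FPKM in CIH 1 and 2, against 38.4 and 38.1 FPKM in control 1 and 2 (−0.44, adjusted p = 0.00671).

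Among the acyl-CoA synthetases, which activate fatty acids, Acsl1 is the main adipocyte form (chr8:46471037-46536051, + strand). It had 640.3 and 590.2 FPKM in CIH 1 and CIH 2, against 635 and 600.0 FPKM in control 1 and control 2. The groups overlapped and it was not called (log2 change −0.01, SE 0.118, adjusted p = 0.972). Acsl3, a synthetase associated with nascent lipid droplets (chr1:78657825-78707743, + strand), fell, and a few of its exon bases are shared with Utp14b on the same strand. Its level was 6.10 and 4.99 FPKM in CIH 1 and CIH 2, against 14.9 and 11.7 FPKM in control 1 and control 2 (log2 change −1.12, SE 0.134, adjusted p = 0.000929). Acsl4, which prefers arachidonate, had 11.1 and 12.3 FPKM in CIH 1 and CIH 2, against 14.1 and 12.1 FPKM in control 1 and control 2 (log2 change −0.15, adjusted p = 0.282). Acsl5 had 10.5 and 10.1 FPKM in CIH 1 and CIH 2, against 8.41 and 8.73 FPKM in control 1 and control 2 (log2 change 0.24, adjusted p = 0.0522). Of the summed FPKM of the 4 synthetases, Acsl1 made up 95.9% and 95.6% in CIH 1 and CIH 2, against 94.4% and 94.9% in control 1 and control 2, so that Acsl3 was a small share of them in either group.

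Of the second acylation genes, the highest in the gene tables was Agpat2, an acyltransferase whose loss causes congenital lipodystrophy in humans (chr2:26593057-26604417, − strand). It had 722 and 649.8 FPKM in CIH 1 and CIH 2, against 516 and 531 FPKM in control 1 and control 2, both CIH libraries above both controls (log2 change 0.39, SE 0.119, adjusted p = 0.0357). Here too the call was lost, with an adjusted p of 0.181 without control 1, 0.118 without control 2 and 0.141 without CIH 1, and all 12 recomputations gave an adjusted p from 0.0129 to 0.191. Agpat3, an acyltransferase of lysophosphatidate (chr10:78269178-78352489, − strand), had 57.2 and 49.8 FPKM in CIH 1 and CIH 2, against 38.2 and 42.9 FPKM in control 1 and control 2 and was also higher (log2 change 0.39, SE 0.108, adjusted p = 0.0246). That call was lost with an adjusted p of 0.0867 without control 1 and 0.145 without CIH 1, within 0.0114 to 0.145 over all 12 recomputations. Lclat1, better known for acylating cardiolipin and phosphatidylinositol, was lower, with 9.91 and 10.9 FPKM in CIH 1 and CIH 2, against 13.1 and 12.6 FPKM in control 1 and control 2 (log2 change −0.28, adjusted p = 0.0380). The Lclat1 call was lost with an adjusted p of 0.104 without control 1, 0.224 without CIH 1 and 0.0686 without CIH 2, within 0.0122 to 0.224 over all 12 recomputations.

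The other AGPAT members, named for the same acyltransferase activity, were not called. Agpat1 had 48.9 and 44.1 FPKM in CIH 1 and CIH 2, against 45.1 and 47.2 FPKM in control 1 and control 2 (adjusted p = 0.945). Agpat4 had 16.4 and 14.6 FPKM in CIH 1 and CIH 2, against 13.5 and 15.7 FPKM in control 1 and control 2 (adjusted p = 0.532). Agpat5 had 5.62 and 5.31 FPKM in CIH 1 and CIH 2, against 6.04 and 5.85 FPKM in control 1 and control 2 (adjusted p = 0.358). Of the family's summed FPKM, Agpat2 took 84.0% and 83.9% in CIH 1 and CIH 2, against 81.7% and 81.0% in control 1 and control 2. Agpat3 was next by the mean in CIH and Agpat1 by the mean in control libraries.

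The tested genes of the phosphatase step fell. Lpin1, which dephosphorylates phosphatidate, was the most abundant lipin in these gene tables (chr12:16535669-16610966, − strand). It had 29.0 and 31.0 FPKM in CIH 1 and CIH 2, against 69.0 and 66.4 FPKM in control 1 and control 2. Its CIH values were close to each other and below both controls, at 30.0 ± 1.46 FPKM in CIH and 67.7 ± 1.87 FPKM in control libraries (SD, n = 2 each). The log2 change was −1.15 (SE 0.0891, adjusted p = 0.000149). Lpin2 was lower by less, with 3.75 and 3.60 FPKM in CIH 1 and CIH 2, against 5.64 and 5.25 FPKM in control 1 and control 2 (log2 change −0.46, adjusted p = 0.00619). Lpin3 was below the filter on low values, with 37 and 35 fragments in CIH 1 and 2, against 73 and 131 in control 1 and 2, and was not tested.

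The DGAT enzymes, unrelated in sequence, parted. Dgat2 (chr7:99153658-99182719, − strand), which is linked to newly made fatty acids, had 60.2 and 51.4 FPKM in CIH 1 and CIH 2, against 122 and 126 FPKM in control 1 and control 2. It fell, with means of 55.8 ± 6.17 FPKM in CIH and 124 ± 2.86 FPKM in control libraries (SD, n = 2 each). The log2 change was −1.14 (SE 0.106, adjusted p = 0.00033). Dgat1 (chr15:76502015-76511953, − strand), the form linked to re-esterification of fatty acids from outside, had 198 and 174 FPKM in CIH 1 and CIH 2, against 197 and 207 FPKM in control 1 and control 2, with CIH 1 between the controls, and was not called (log2 change −0.12, SE 0.109, adjusted p = 0.398). The ratio of Dgat1 to Dgat2 was 3.29 and 3.39 in CIH 1 and 2, against 1.62 and 1.65 in control 1 and 2. Bscl2, which encodes seipin, a protein of lipid droplet formation (chr19:8837467-8848683, + strand), had 2.18 and 2.31 FPKM in CIH 1 and CIH 2, against 3.51 and 3.68 FPKM in control 1 and control 2 and fell (log2 change −0.50, SE 0.0942, adjusted p = 0.00577). Of its exon bases, 6.75% are shared with Gng3 on the opposite strand and 4.05% with AC129217.1 on the same strand.

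Of 45 other genes of the pathway, 36 were tested in CIH 1 and 2, of which 12 fell, 5 rose and 19 were not called. Over all genes tested, 21.7% fell, 20.2% rose and 41.9% were called in either direction. The falls with the largest change were Insig1, an inhibitor of SREBP processing, at 63.3 and 59.3 FPKM in CIH 1 and CIH 2, against 179 and 168 FPKM in control 1 and control 2 (log2 change −1.49), and Hacd2, an elongation dehydratase, at 113 and 96.9 FPKM in CIH 1 and 2 and 289 and 247 FPKM in control 1 and 2 (−1.35). Elovl3 had 3.40 and 2.17 FPKM in CIH 1 and 2 and 7.65 and 7.08 FPKM in control 1 and 2 (−1.16) and Insig2 had 9.84 and 9.75 FPKM in CIH 1 and 2 and 21.6 and 19.1 FPKM in control 1 and 2 (−0.98). Another list of 11 genes held those of SREBP processing and its nuclear receptor input, and also Usf1, Usf2 and Max. Of these 11, 5 fell (Srebf2, Insig1, Insig2, Mbtps1 and Usf2) and 0 rose by limma. At an unadjusted p under 0.05 these counts were 6 and 0. Gk, glycerol kinase, which makes glycerol 3-phosphate from free glycerol, rose the most among these 45, with 38.9 and 38.5 FPKM in CIH 1 and CIH 2, against 8.92 and 8.07 FPKM in control 1 and control 2 (log2 change 2.06, adjusted p = 1.64e-05). Mpc2, a subunit of the mitochondrial pyruvate carrier, was higher with 48.7 and 43.9 FPKM in CIH 1 and 2 and 27.4 and 32.0 FPKM in control 1 and 2 (0.63). So were Lpcat4, which passed the filter only through the CIH libraries, with 1.61 and 1.67 FPKM in CIH 1 and 2 and 0.674 and 0.873 FPKM in control 1 and 2 (0.58) and Mecr, the mitochondrial enoyl reductase, with 20.2 and 17.6 FPKM in CIH 1 and 2 and 13.0 and 14.5 FPKM in control 1 and 2 (0.43). Gpd1l, a relative of Gpd1 with the same activity, had 11.8 and 10.8 FPKM in CIH 1 and CIH 2, against 11.1 and 11.7 FPKM in control 1 and control 2 and was not called (log2 change −0.01, adjusted p = 0.938).

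In the replicate 3 pair most of the pathway was lower in CIH 3, with chain synthesis and glycerolipid assembly far below control 3 and elongation least. Of the 37 members that averaged 1 FPKM or more in this pair, 23 were at least 2-fold lower in CIH 3, 1 was at least 2-fold higher and 13 lay between. Over all 11620 genes of this pair 11.3% were at least 2-fold lower and 23.6% at least 2-fold higher. The median log2 difference over all members was −1.82 in chain synthesis, −0.26 in elongation and −1.29 in assembly. The median of all genes was 0.31, so that relative to it the classes stood at −2.13, −0.57 and −1.59. With 1 library per group these differences have no replicate check. Genes of the mitochondrial genome took 22.4% of the total FPKM in CIH 3 against 43.7% in control 3. The part of this in the differences was not tested. Scaling to the total FPKM moved the median of all genes to 0.87 and left 16 members at least 2-fold lower and 6 at least 2-fold higher, beside 5.89% and 44.1% of all genes. It turned Mid1ip1, Elovl1, Elovl5 and Agpat5 to higher in CIH 3. With the highest single entry per gene in place of the sum, elongation stood at −0.23 relative to all genes and Elovl1 turned to higher, while 3 members were at least 2-fold higher, beside 22.4% of all genes.

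All 14 chain synthesis genes were lower in CIH 3, 10 of them at least 2-fold. Thrsp had 3.74 FPKM in CIH 3 against 539 FPKM in control 3, a 114-fold difference on the log2(FPKM + 1) scale. Fasn had 32.7 FPKM in CIH 3 against 287 FPKM in control 3 (8.54-fold), and Slc25a1 had 32.7 FPKM in CIH 3 against 343 FPKM in control 3 (10.2-fold). The differences of Acly (42.7 FPKM in CIH 3 against 79.8 FPKM in control 3) and Acacb (8.50 FPKM in CIH 3 against 15.0 FPKM in control 3) were under 2-fold here, and Acaca had 46.6 FPKM in CIH 3 against 135 FPKM in control 3. Pcx, which was higher in CIH 1 and 2, was 12.3-fold lower in CIH 3, with 65.1 FPKM in CIH 3 against 813 FPKM in control 3. Srebf1 had 15.9 FPKM in CIH 3 against 41.8 FPKM in control 3, and Mlxipl had 0.235 FPKM in CIH 3 against 6.08 FPKM in control 3 and passed the filter only through control 3. Of the rest, Me1 had 16.8 FPKM in CIH 3 against 97.9 FPKM in control 3 and Acss2 7.37 FPKM in CIH 3 against 35.5 FPKM in control 3. Mcat had 10.1 FPKM in CIH 3 against 23.8 FPKM in control 3 and Mlx 13.2 FPKM in CIH 3 against 23.6 FPKM in control 3, while Mid1ip1 was nearly level at 31.6 FPKM in CIH 3 against 31.9 FPKM in control 3.

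In elongation the pair parted from the rest of the pathway through Elovl6, which had 18.1 FPKM in CIH 3 against 1.04 FPKM in control 3, 9.37-fold higher on the log2(FPKM + 1) scale. On that scale no other member that passed the filter was at least 2-fold higher in CIH 3, while with a pseudocount of 0.1 there were 3 such members, beside 27.6% of all genes. Elovl6 was therefore above the controls in all 3 CIH libraries within their own kind of table. It entered the limma test only through CIH 1 and 2, and CIH 3 stood apart in its cell markers. The 3 libraries are thus no independent support for a rise. Elovl5 had 25.1 FPKM in CIH 3 against 37.3 FPKM in control 3, lower but within 2-fold. Hsd17b12, higher in CIH 1 and 2, had 55.1 FPKM in CIH 3 against 236 FPKM in control 3, and Tecr had 60.0 FPKM in CIH 3 against 178 FPKM in control 3. Elovl1 had 29.5 FPKM in CIH 3 against 35.5 FPKM in control 3, Elovl4, which passed the filter only through CIH 3, 1.73 FPKM in CIH 3 against 0.639 FPKM in control 3, and Elovl7 was at 0.0498 FPKM in CIH 3 and listed at 0 in control 3.

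The 4 assembly genes of highest level in control 3, Acsl1, Gpd1, Agpat2 and Dgat1, differed most within assembly on the log2(FPKM + 1) scale. Control 3 enters both the level and the difference, so these orders are tied by construction and the match is not a result. With a pseudocount of 0.1, Lpin1 (−4.02) differed by slightly more than Dgat1 (−3.98). Gpd1 had 17.2 FPKM in CIH 3 against 1601 FPKM in control 3, 87.9-fold lower in CIH 3, although it was the member with the largest rise in CIH 1 and 2. Acsl1 had 38.4 FPKM in CIH 3 against 2051 FPKM in control 3 (52.1-fold lower), and Agpat2 had 31.0 FPKM in CIH 3 against 945 FPKM in control 3 (29.6-fold lower). Dgat1 had 17.2 FPKM in CIH 3 against 274 FPKM in control 3 and Dgat2 11.9 FPKM in CIH 3 against 164 FPKM in control 3, 15.1-fold and 12.8-fold lower. Lpin1 had 6.88 FPKM in CIH 3 against 113 FPKM in control 3 (14.5-fold lower), Bscl2 2.20 FPKM in CIH 3 against 29.7 FPKM in control 3 and Gpam 15.9 FPKM in CIH 3 against 51.3 FPKM in control 3. These genes were thus lower in CIH 3 whether they had fallen, risen or not been called in CIH 1 and 2. Agpat3 had 54.7 FPKM in CIH 3 against 147 FPKM in control 3, Agpat1 22.9 FPKM in CIH 3 against 52.4 FPKM in control 3 and Acsl3 15.2 FPKM in CIH 3 against 31.8 FPKM in control 3.

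The assembly members higher in CIH 3 were Lclat1 with 49.2 FPKM in CIH 3 against 24.4 FPKM in control 3 and Agpat4 with 28.3 FPKM in CIH 3 against 14.2 FPKM in control 3. So were Acsl4 with 29.3 FPKM in CIH 3 against 15.6 FPKM in control 3 and Acsl5 with 21.2 FPKM in CIH 3 against 13.6 FPKM in control 3, and all 4 were within 2-fold on the log2(FPKM + 1) scale. Lpin2 had 8.44 FPKM in CIH 3 against 8.39 FPKM in control 3, Agpat5 9.89 FPKM in CIH 3 against 12.2 FPKM in control 3 and Lpin3 0.281 FPKM in CIH 3 against 0.711 FPKM in control 3. The dominant forms held smaller shares of their families in CIH 3. Acsl1 took 36.9% in CIH 3 against 97.1% in control 3, as shares of the summed FPKM of the synthetases. Agpat2 took 15.8% in CIH 3 against 79.1% in control 3 of its family, and Lpin1 44.1% in CIH 3 against 92.6% in control 3 of the lipins. Lpin2 was the most abundant lipin in CIH 3. Dgat1 was 59.2% in CIH 3 against 62.6% in control 3 of the DGAT pair, a small difference beside that in CIH 1 and 2, and the contrast between the pairs was not tested.

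**Figure D3:**
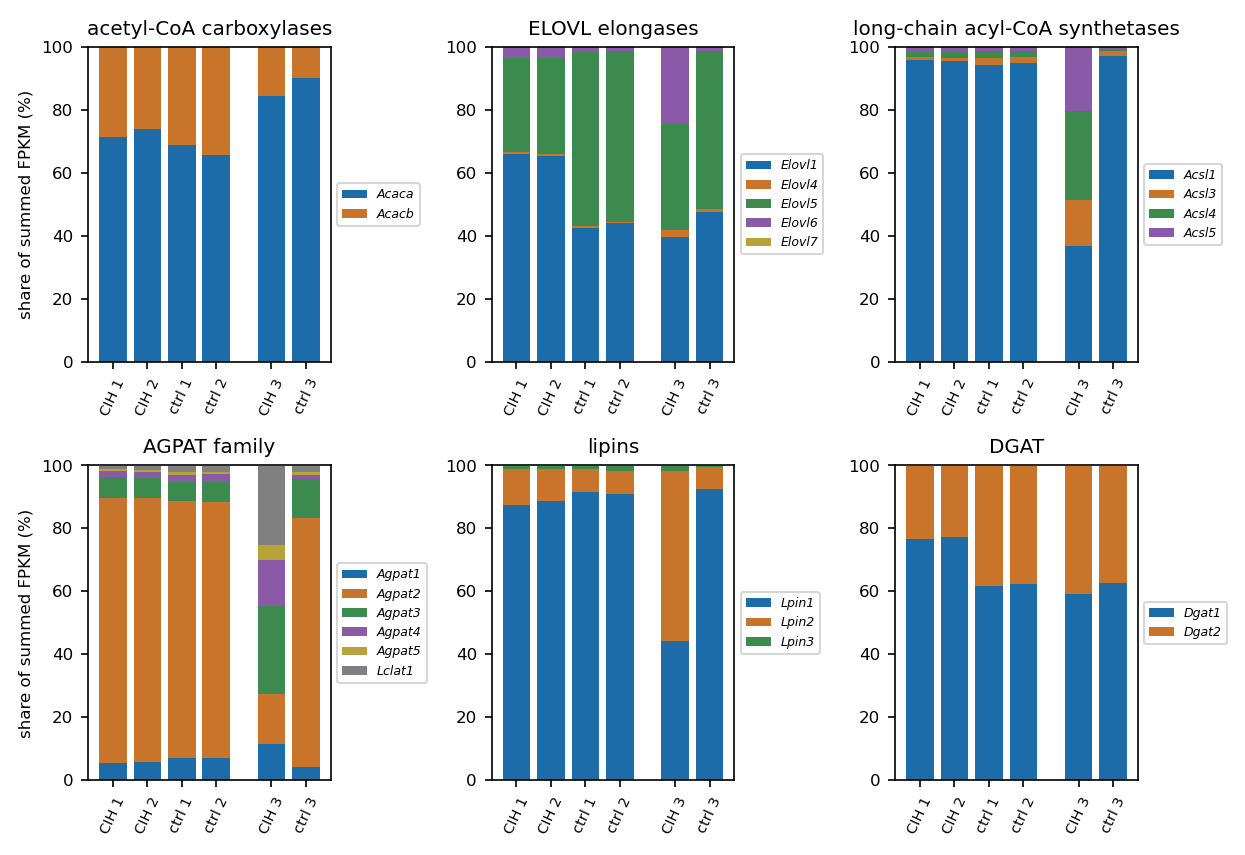
Share of each gene in the summed FPKM of its family, in percent, for CIH 1 and 2, control 1 and 2, CIH 3 and control 3 from left to right, with a gap before the transcript tables. Elovl5 takes a smaller share in CIH 1 and 2 than in control 1 and 2, Dgat1 a larger one, and the shares of Acsl1, Agpat2 and Lpin1 are smallest in CIH 3.

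Set side by side, CIH values were below control values in both comparisons for the chain synthesis core, Lpin1 and Dgat2, and differed in direction for most genes that rose in CIH 1 and 2. Of the 16 members lower in CIH 1 and 2, 10 were at least 2-fold lower in CIH 3 and 0 at least 2-fold higher. Of all genes lower in CIH 1 and 2 that passed the filter in the pair, the shares were 19.8% and 15.3%. Of the 6 members higher in CIH 1 and 2, Pcx, Hsd17b12, Gpd1, Agpat2 and Agpat3 were at least 2-fold lower in CIH 3 and Elovl6 at least 2-fold higher. That is 5 and 1 of 6, beside 14.7% and 25.9% of all genes higher in CIH 1 and 2. The 1 is Elovl6, which entered the test only through CIH 1 and 2. The adipocyte markers were lower in CIH 3 by a median of more than the members of any class, and their part in these differences was not tested. Of the 45 other pathway genes, 39 passed the filter in the pair. Of these, 20 were at least 2-fold lower in CIH 3 and 4 at least 2-fold higher, beside 11.3% and 23.6% of all genes. Among the higher, Lpcat2 and Lpcat4 passed the filter only through CIH 3. Among the lower, Elovl3 passed it only through control 3. Gk, which rose in CIH 1 and 2, had 4.16 FPKM in CIH 3 against 18.5 FPKM in control 3.

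**Figure D4:**
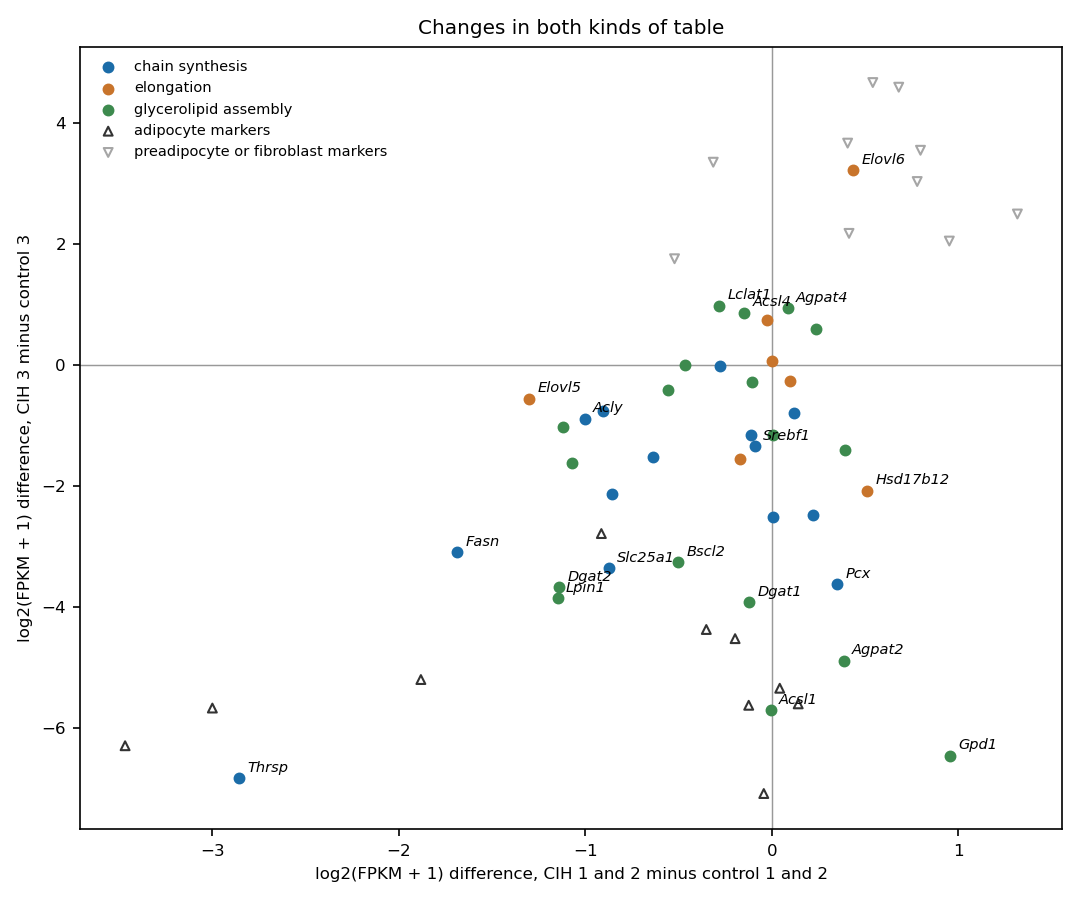
Each point is a gene, with the log2(FPKM + 1) difference of CIH 1 and 2 minus control 1 and 2 on the x axis and that of CIH 3 minus control 3 on the y axis. Filled circles are members coloured by class, upward triangles adipocyte markers and downward triangles preadipocyte or fibroblast markers. Thrsp, Fasn, Lpin1 and Dgat2 lie to the lower left, Gpd1, Agpat2, Pcx and Hsd17b12 to the lower right, and Elovl6 stands among the fibroblast markers at the upper right.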

How the data were processed

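Messenger RNA of 3 CIH and 3 control libraries was measured with directional libraries. The values deposited by the authors are FPKM, a unit inferred from the values, since the headers hold sample names only. In the gene tables of replicates 1 and 2, FPKM times exon length came in whole steps for 98.4% and 98.5% of genes under 50 fragments in CIH 1 and 2, and 98.4% and 98.6% in control 1 and 2 (within 0.05 of a whole fragment, 10% by chance). The submitters' processing notes name GRCm38, featureCounts 1.5.0-p3 and DESeq 1.8.3 without their roles. The sources used here give neither an aligner nor the strand setting of the counting. Entries of the transcript tables (50660) were summed per gene ID.

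Symbols and coordinates came from GENCODE M21, and promoters from RefSeq (GRCm38.p6), which matched 34 of the 39 members. The gene tables and transcript tables were normalized separately, so no test spans them. Values were taken as log2(FPKM + 1), a scale on which fold changes understate the change of low genes. Genes averaging 1 FPKM or more in the 4 gene tables entered limma 3.58.1 under R 4.3.3, using its empirical Bayes step with a trend, with Benjamini-Hochberg adjustment over all 10981 and calls at an adjusted p under 0.05, and the method was tested on simulated data. The replicate 3 pair was described by differences of at least 2-fold. Replicates of a group were not the same library: their counts differed beyond sampling noise (mean chi-square 9.62 for CIH 1 and 2, and 14.1 for control 1 and 2). Tables were made with Python 3.11.15.

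The members and lists were chosen with earlier results of these data known. All 39 members are named, and those given in full are, per class, up to 5 lower and 3 higher called members with the largest change and the enzymes that define the steps. Alternatives were a pseudocount of 0.1, no filter, a filter over all 6 libraries, 3 other scalings, no trend, a replicate block and leaving out each library.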

Additional observations from a re-analysis of the deposited data

How the results depend on the processing

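With 2 libraries per group and 1 in the replicate 3 pair, the falls of the chain synthesis core, Elovl5, Gpam, Lpin1 and Dgat2 kept their direction and call in all 12 recomputations, and the causes of the changes below were not tested. Without a filter on low values, which takes 24416 genes into the test, limma called 0 members higher (5 at an unadjusted p under 0.05), 14 lower and 2 other pathway genes higher, beside 4.6% of all genes higher and 5.81% lower. Leaving out each library gave 1 to 4 members higher, 14 to 15 lower, and 3 to 6 other pathway genes higher. The class medians in CIH 1 and 2 then ranged from −0.50 to −0.42 in chain synthesis and −0.19 to −0.12 in assembly. Chain synthesis stood at −0.48 with a pseudocount of 0.1, −0.58 with scaling by the total and −0.63 over tested members alone. Elongation stood at 0.097 over tested members, Elovl6 among them, and assembly at −0.26 with scaling by the total.

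In the replicate 3 pair, members at least 2-fold higher numbered 3 with a pseudocount of 0.1, 6 with scaling by the total and 3 with the highest entry of each gene ID, beside 27.6%, 44.1% and 22.4% of all genes. At 1.5-fold they numbered 6, beside 37.9%. Relative medians of chain synthesis were −2.24, −2.09, −2.15 and −1.86 with the pseudocount of 0.1, the total, the median of ratios and the highest entry. Those of elongation were −0.61, −0.78 and −0.23 with the pseudocount, the total and the highest entry, and those of assembly −1.65, −1.54 and −1.62 with the pseudocount, the total and the median of ratios.

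Members not called that changed sign under scaling by the total were Mlx (−0.0080), Elovl1 (−0.029), Agpat1 (−0.12) and Agpat4 (−0.035). Leaving out each library, Acsl1 ranged from −0.065 to 0.053, Agpat1 from −0.062 to 0.081 and Agpat4 from −0.013 to 0.19, and Acsl1 was at 0.0099 with the median of ratios and 0.014 with the upper quartile. Tecr and Dgat1 became called with scaling by the total (adjusted p = 0.0169 and 0.0445, over ranges from 0.0169 to 0.516 and 0.0445 to 0.878).

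Same-numbered libraries of the groups are not shown to be paired: the deviations of CIH 1 and control 1 correlated at −0.13 over 10981 genes. A replicate block left 14 members lower and 4 higher, beside 19.7% and 18.5% of all genes tested. It lost the calls of Pcx, Agpat2, Mid1ip1 and Lclat1 (limma, adjusted p = 0.114, 0.0826, 0.0662 and 0.0619). The crossed pairing, chosen after the data were seen, gave 16 lower and 7 higher, beside 23.2% and 22.2% of all genes tested.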
